A study of Mus musculus with 4 samples.

Results

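The tetraspanin genes of mouse leukaemia cells, other than Tspan13, were compared between wild-type and Tet2-deficient cells by RNA sequencing. Members were all rows of the deposited expression table named Tspan followed by a number, with Tspan13 left out, plus Cd9, Cd37, Cd53, Cd63, Cd81, Cd82 and Cd151, and they came to 26 of 24497 gene rows. The acute myeloid leukaemia cells carried NRAS and AE9a, a short form of the AML1-ETO fusion protein in which the DNA-binding part comes from RUNX1. Their source was haematopoietic stem cells from the marrow of either wild-type (WT) or Tet2-/- mice. The latter lack exon 3 of Tet2, the gene of a 5-methylcytosine dioxygenase. Both genotypes were otherwise grown alike, with 50 ng/ml of SCF (the ligand of Kit), 10 ng/ml of IL-3, 10 ng/ml of IL-6, 1 mg/ml of G418 and 2 µg/ml of puromycin. There were 2 libraries labelled WT and 2 labelled Tet2 KO, and every mean ± SD below has n = 2. The labels do not say how many mice, cultures or clones the libraries came from, so p-values here rest on a spread that may be technical only.

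Tetraspanins are small proteins that cross the membrane several times and gather integrins, immunoglobulin-type receptors and proteases into membrane microdomains. Several of them also mark endosomes and the vesicles that cells release. In blood cells they are known for setting adhesion, receptor clustering and antigen presentation, and individual members have been studied on leukaemia cells.

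Values are TPM, length-corrected shares of all transcripts in a library, so levels of different genes in a library can be set side by side. TPM keep no sequencing depth, and the depth of each library is unknown. Spike-in RNAs made up 4.38 and 4.43% (WT) and 5.48 and 5.33% (Tet2 KO). The median log2 fold change of all 11452 tested genes was 0.23 in favour of Tet2 KO. The difference of each tested member is therefore also given against the all-gene median, which means after rescaling every library by its median ratio. Tet2 itself stood at 16.62 and 16.98 TPM (WT) against 16.98 and 16.95 TPM (Tet2 KO), a gene-level value that does not separate exon 3 and so checks nothing about the deletion. Ptprc, Spi1, Cebpa, Itgam, Mpo and Runx1t1, used as identity genes of these cells, were all detected. Their summed levels were 1031 and 1041 TPM (WT) against 912.7 and 923.9 TPM (Tet2 KO). The sum hides opposite changes. Before median-ratio rescaling 3 of them rose (Ptprc, Cebpa and Mpo) and 2 fell (Spi1 and Itgam), where 54.4% of all tested genes rose and 19.5% fell. After rescaling 2 rose and 3 fell, beside 32.7% and 34.8% of all tested genes. Ptprc then no longer counted as a rise (log2 fold change -0.0), and Runx1t1 counted as a fall (-0.15).

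The members did not all move in 1 direction. In Tet2 KO cells Cd9 was 1.89-fold lower in mean TPM, and Tspan3, Tspan31 and Cd81 were also lower. Cd63, Cd37, Cd82, Tspan32, Tspan4, Tspan2 and Tspan9 were higher. Of the 26 members, 16 had 2 or more libraries at 1 TPM or above and were tested with limma, and 7 of these rose and 4 fell at an adjusted p under 0.05. Among all tested genes 54.4% rose and 19.5% fell, beside 43.8% and 25% of the tested members, so the counts lie near the background. The 7 rises include Tspan9, which reached 1 TPM in the Tet2 KO libraries only and so had to differ, and with a filter on the mean level 15 members were tested, of which 6 rose and 4 fell. The median log2 fold change of the tested members, 0.24, also lay beside that of all genes.

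Against the all-gene median, 7 members rose and 8 fell (background 32.7% and 34.8%). Tspan14, Tspan5, Tspan17 and Cd151 fell on this scale but not on the deposited one, and all 4 also fell relative to the spike-ins. Both rescalings multiply a whole library by a common factor and lower Tet2 KO relative to WT, so the spike-in calls are no separate check. Without WT replicate 2 the 7 rises became 4, with Cd63, Cd82 and Tspan2 no longer past the threshold. Relative to the spike-in RNAs 6 rose and 8 fell (background 29.6% and 37.7%). In each of the 16 tested members both libraries of a genotype lay on the same side of the other genotype's, 9 with Tet2 KO higher and 7 with Tet2 KO lower, beside 62.4% and 24.4% of all tested genes. None of the members rose or fell by 1 or more on the log2(TPM + 1) scale of the test, where 6.1% of all tested genes rose and 2.8% fell by that much. After median-ratio scaling Cd9 alone did (background 3.79% of genes higher and 4.48% lower by that much).

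**Figure D1:**
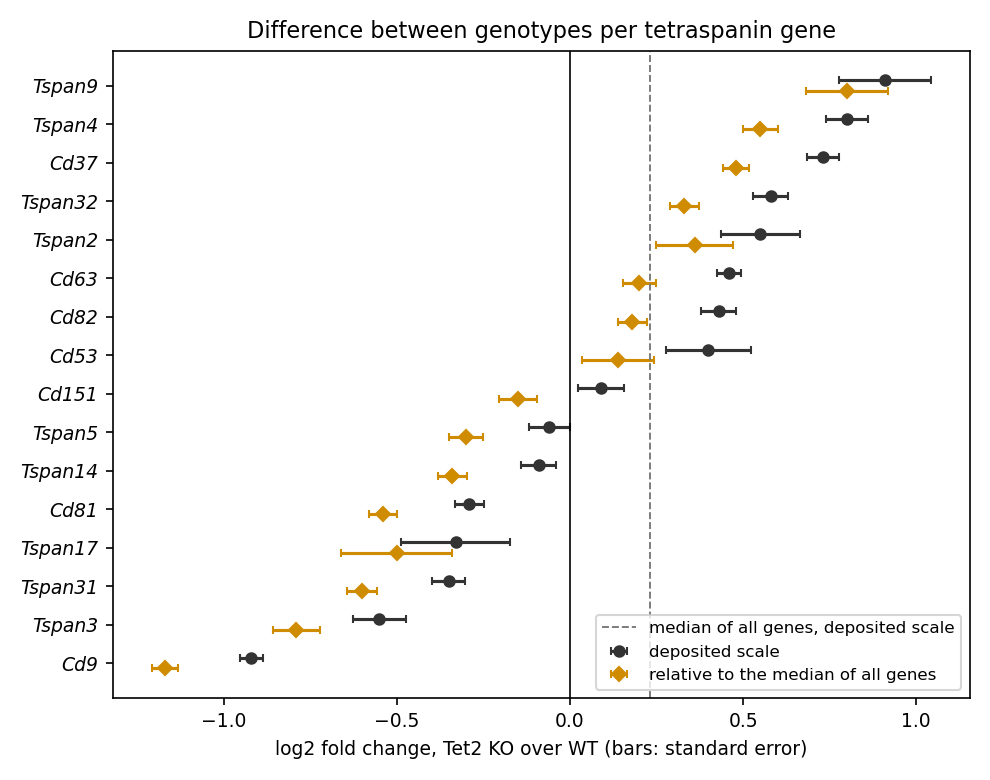
Log2 fold change of Tet2 KO over WT for the 16 tested tetraspanin genes, on the deposited scale (circles) and against the all-gene median (diamonds), with standard errors from limma. The dashed line is the median of all tested genes, 0.23, and the members lie on both sides of it, from Cd9 at -0.92 to Tspan9 at 0.91.

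Cd81 and Tspan32 are neighbours on chromosome 7 that changed in opposite directions, and the bases before their starts are shown for that reason. Tspan32 (143005046 to 143019644) and Cd81 (143052739 to 143067934) both lie on the plus strand of mm10, 33.1 kb apart, with no coding gene annotated between them in GENCODE M21. Each sequence is the 250 bases before the RefSeq transcription start, from GRCm38.p6, plus strand, with matches to any of 4 motifs in capitals.
Tspan32, chr7:143004796-143005045: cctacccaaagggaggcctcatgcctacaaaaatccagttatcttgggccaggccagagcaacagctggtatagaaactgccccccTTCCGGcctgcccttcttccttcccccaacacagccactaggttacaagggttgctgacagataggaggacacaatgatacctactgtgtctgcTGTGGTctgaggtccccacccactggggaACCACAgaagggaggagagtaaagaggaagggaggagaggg
Cd81, chr7:143052500-143052749: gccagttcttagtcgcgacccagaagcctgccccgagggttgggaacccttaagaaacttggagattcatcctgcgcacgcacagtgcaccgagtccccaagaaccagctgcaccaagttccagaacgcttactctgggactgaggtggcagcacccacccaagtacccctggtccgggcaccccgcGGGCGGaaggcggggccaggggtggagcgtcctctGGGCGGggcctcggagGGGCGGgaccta

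The motifs searched, on both strands, were TGTGGT, the core bound by RUNX proteins, GGGCGG, the GC box, CCGGAA, an ETS core, and CACGTG, an E-box, none of which overlap each other in these windows. The Tspan32 window holds 2 RUNX cores, starting 70 and 41 bases before the start, 1 ETS core and 1 CpG. The Cd81 window holds 3 GC boxes, the nearest starting 12 bases before the start, no RUNX core and 16 CpGs. The windows therefore differ in both motif content and base composition, with 55.6% and 65.6% G and C. Tested genes with a RefSeq entry numbered 8905, and some have several starts. Among their 11311 windows, 11.2% hold the RUNX core, 57.1% the GC box, 22.8% the ETS core and 8.44% the E-box. Of the 26 windows of the 16 tested members, 6 hold the RUNX core (23.1%) and 12 the GC box (46.2%). The ETS core is in 4 of them (15.4%) and the E-box in 2 (7.69%). The 6 windows with a RUNX core belong to Tspan32, Cd53, Cd82, Tspan2 and Tspan3, of which 3 rose, Tspan3 fell and Cd53 was not called. Among all tested genes 54.4% rose and 19.5% fell on the deposited scale, so these few calls lie near the background. Cd82 has more than 1 of these windows, and Cd82 and Tspan2 also have windows without the core. A match describes letters only and is not a bound site.

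The most abundant member was Cd63, which sits in late endosomes, lysosomes and secretory granules and is a common marker of exosomes. It stood at 1362.69 and 1273.41 TPM (WT) against 1819.28 and 1795.78 TPM (Tet2 KO). Both Tet2 KO libraries were above both WT libraries. Cd63 rose from 1318 ± 63.1 to 1808 ± 16.6 TPM, 1.37-fold (log2 fold change 0.46, SE 0.0349, limma adjusted p = 7.83e-09). Against the all-gene median the rise was 0.20 (limma adjusted p = 0.0054), and without WT replicate 2 it was 0.14 and missed the threshold (limma adjusted p = 0.055).

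Cd9, which binds integrins and the immunoglobulin-type protein EWI-2 and restrains the fusion of macrophages, had the largest fall of the tested members. It was at 1132.69 and 1127.66 TPM (WT) against 600.94 and 595.65 TPM (Tet2 KO). The genotypes lay far apart and the libraries of each genotype close together, with means of 1130 ± 3.56 and 598.3 ± 3.74 TPM. Cd9 had a fitted log2 difference of -0.92 with an SE of 0.033 (limma adjusted p = 5.47e-13), and -1.17 against the all-gene median (limma adjusted p = 1.12e-07). An antisense transcript, Gm26728, shares 10.7% of the exonic bases of Cd9 and was not analysed here.

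With Cd63 higher and Cd9 lower, the make-up of the tetraspanin transcripts changed more than their total. The summed family was 3681 and 3582 TPM (WT) against 3820 and 3727 TPM (Tet2 KO), between 0.358 and 0.382% of each library. Cd63 made up 36.3 ± 1.04% of that sum in WT and 47.9 ± 0.391% in Tet2 KO. Cd9 made up 31.1 ± 0.503% and 15.9 ± 0.176%, Cd53 10.4 ± 0.4% and 13.2 ± 1.67%, and Cd81 6.33 ± 0.0556% and 4.97 ± 0.141%. These shares are ratios within a library and are not changed by a factor that multiplies a whole library. The ratio of Cd9 to Cd63 was 0.831 and 0.886 in WT and 0.33 and 0.332 in Tet2 KO. No test was made of the shares, since the smallest two-sided p of an exact permutation test over 2 against 2 libraries is 0.333.

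**Figure D2:**
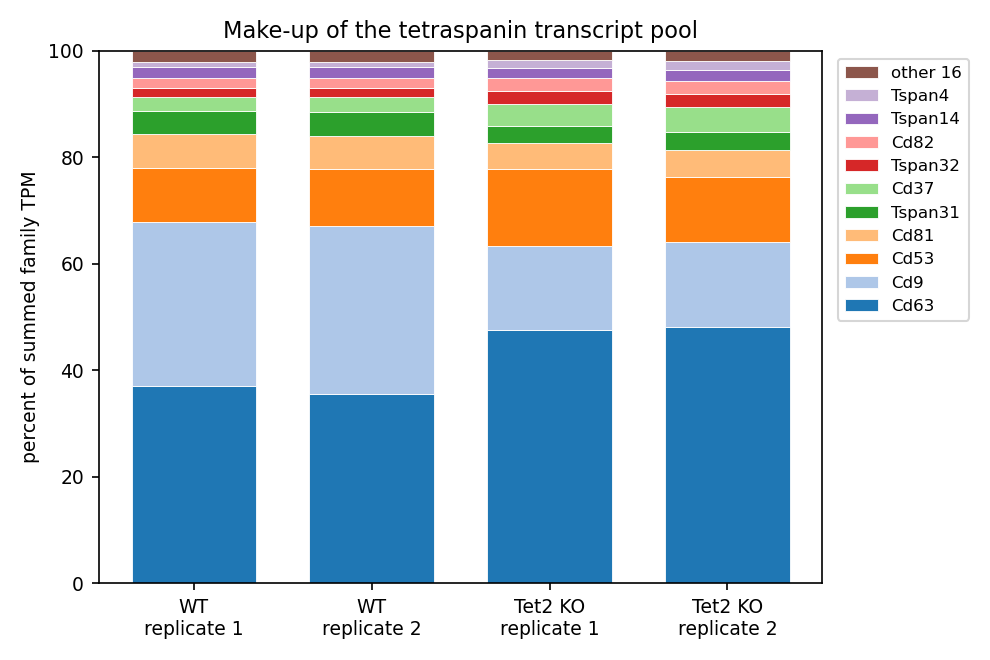
Percent of the summed TPM of all 26 family members taken by each member in each library (stacked bars, 1 per library). Cd63 takes 35.5 to 37.0% in the WT libraries and 47.6 to 48.2% in the Tet2 KO libraries, and Cd9 30.8 to 31.5% and 15.7 to 16.0%.

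Cd81, Cd82 and Cd151 are the other widely expressed members that pair with integrins and immunoglobulin-type proteins, and each behaved differently. Cd81, known as an entry factor of hepatitis C virus, was at 234.39 and 225.26 TPM (WT) against 186.21 and 189.11 TPM (Tet2 KO). It fell from 229.8 ± 6.46 to 187.7 ± 2.05 TPM, a log2 difference of -0.29 with an SE of 0.0421 (limma adjusted p = 1.12e-05), and of -0.54 against the all-gene median. The fall of Cd81 was smaller than that of Cd9, and the ratio of Cd9 to Cd81 went from 4.83 and 5.01 in WT to 3.23 and 3.15 in Tet2 KO.

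Cd82, first described as a suppressor of metastasis, was at 67.87 and 66.60 TPM (WT) against 88.98 and 92.33 TPM (Tet2 KO). Both Tet2 KO values lay above both WT values, and the fitted log2 difference was 0.43 with an SE of 0.0505 (limma adjusted p = 1.2e-06). The rise was 0.18 against the all-gene median (limma adjusted p = 0.00608, and 0.0805 without WT replicate 2) and 0.13 relative to the spike-ins, where it missed the threshold (limma adjusted p = 0.0532). Cd151, the partner of laminin-binding integrins, was at 18.64 and 19.74 TPM (WT) against 20.32 and 20.57 TPM (Tet2 KO). The groups did not overlap, but the log2 fold change of 0.09 missed the threshold (limma adjusted p = 0.245). After median-ratio scaling Cd151 fell by 0.15 on the log2 scale (limma adjusted p = 0.0394), a call lost without any 1 of the 4 libraries (limma adjusted p = 0.0566 to 0.217).

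Among the members mainly expressed in blood cells, Cd37 and Tspan32 rose and Cd53 was uncertain. Cd37, which is known to dampen cytokine signalling in B cells and to shape antigen presentation, was at 99.70 and 100.89 TPM (WT) against 163.51 and 170.07 TPM (Tet2 KO). With no overlap between genotypes, its mean rose 1.66-fold (log2 fold change 0.73, SE 0.0457, limma adjusted p = 5.69e-10), and by 0.48 on the log2 scale against the all-gene median. Tspan32, also called Tssc6, restrains T cell responses, and was at 63.19 and 61.88 TPM (WT) against 92.51 and 95.83 TPM (Tet2 KO). It rose by 0.58 on the log2 scale (SE 0.0506, limma adjusted p = 2.98e-08), and by 0.33 against the all-gene median (limma adjusted p = 0.000191). The ratio of Tspan32 to its neighbour Cd81 was 0.27 and 0.275 in WT and 0.497 and 0.507 in Tet2 KO.

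Cd53, a leukocyte tetraspanin that stabilises the homing receptor L-selectin, was at 372.81 and 383.03 TPM (WT) against 550.60 and 449.27 TPM (Tet2 KO). Both Tet2 KO libraries were higher than WT, but they differed from each other by a larger ratio than in any other member above 5 TPM. The log2 fold change of 0.40 (SE 0.123) missed the threshold (limma adjusted p = 0.0644). Leaving out Tet2 KO replicate 1 or Tet2 KO replicate 2 gave 0.25 and 0.54. Either fit drops the spread between the Tet2 KO libraries, so it cannot settle whether the gene differed. Against the all-gene median Cd53 differed by 0.14 (limma adjusted p = 0.272), by -0.02 without Tet2 KO replicate 1 and by 0.31 without Tet2 KO replicate 2. Over all settings run on both scales the adjusted p of Cd53 ranged from 7.59e-06 to 0.669.

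**Figure D3:**
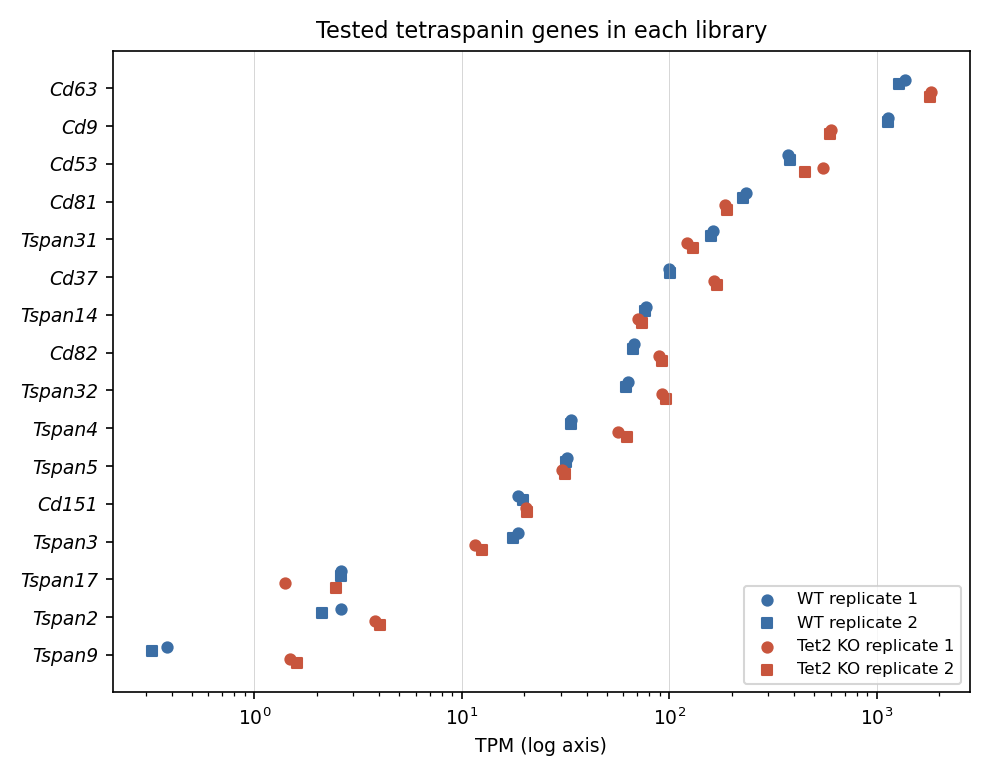
TPM of the 16 tested tetraspanin genes in each of the 4 libraries, on a log axis, ordered by mean level in WT (blue, WT; red, Tet2 KO; circles, replicate 1; squares, replicate 2). Libraries of a genotype lie close together for most members, with Cd53 and Tspan17 as the widest pairs in Tet2 KO.

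The TspanC8 subgroup (Tspan5, Tspan10, Tspan14, Tspan15, Tspan17 and Tspan33) carries the protease ADAM10 to the cell surface. No tested member of it passed the test on the deposited scale, and all 3 fell against the all-gene median, where 34.8% of all tested genes fell. Tspan14, the most abundant, was at 77.14 and 76.18 TPM (WT) against 70.43 and 73.46 TPM (Tet2 KO). Its fitted log2 difference was -0.09 (limma adjusted p = 0.12), and -0.12 without Tet2 KO replicate 2. Tspan5 was at 32.26 and 31.76 TPM (WT) against 30.23 and 31.25 TPM (Tet2 KO), with a fitted log2 difference of -0.06 (limma adjusted p = 0.394). Set against the all-gene median, these differences were -0.34 and -0.30 (limma adjusted p = 0.000163 and 0.000747). On the deposited scale the Tet2 KO libraries of both genes lay just below the WT libraries.

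Tspan17 was low, at 2.62 and 2.60 TPM (WT) against 1.40 and 2.46 TPM (Tet2 KO), with the Tet2 KO libraries far apart. The log2 difference of Tspan17 was -0.33 (limma adjusted p = 0.0811), and -0.59 without Tet2 KO replicate 2, which drops the spread between the Tet2 KO libraries. After median-ratio scaling the log2 difference of Tspan17 was -0.50 (limma adjusted p = 0.0242), a call lost without WT replicate 1, WT replicate 2 or Tet2 KO replicate 1 (limma adjusted p = 0.105, 0.0879 and 0.107). Tspan10 lay between 0.03 and 0.49 TPM, and Tspan15 and Tspan33 did not exceed 0.03 TPM. Adam10 itself was at 98.19 and 107.11 TPM (WT) against 122.43 and 109.22 TPM (Tet2 KO). Its difference of 0.17 passed the test on the deposited scale (limma adjusted p = 0.0244), but not without WT replicate 1 or Tet2 KO replicate 1 (limma adjusted p = 0.231 and 0.189), and it was -0.08 against the all-gene median (limma adjusted p = 0.345). Over all settings run on both scales the adjusted p of Adam10 reached 0.812.

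Of the remaining expressed members, Tspan4 had the clearest rise. Tspan4, which drives the formation of migrasomes on the retraction fibres of moving cells, was at 33.73 and 33.72 TPM (WT) against 56.81 and 62.34 TPM (Tet2 KO). It rose 1.77-fold (log2 fold change 0.80, SE 0.0595, limma adjusted p = 4.46e-09), and by 0.55 on the log2 scale against the all-gene median. Cd151 lies 3.8 kb upstream of Tspan4 on the same strand of chromosome 7 (141467392 to 141471473 and 141475240 to 141493427, mm10). Between them 1 coding gene is annotated in GENCODE M21. The ratio of Tspan4 to Cd151 was 1.81 and 1.71 in WT and 2.8 and 3.03 in Tet2 KO, higher in both Tet2 KO libraries than in either WT library. The Chid1 gene on the opposite strand shares 13.4% of the exonic bases of Tspan4. It was at 11.43 and 11.60 TPM (WT) against 9.88 and 11.29 TPM (Tet2 KO), and the labels do not state whether reads were counted by strand.

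Tspan3 and Tspan31 fell. Tspan3, which is known to be required for the propagation of mouse acute myeloid leukaemia, was at 18.59 and 17.55 TPM (WT) against 11.51 and 12.56 TPM (Tet2 KO). The difference was larger than the spread in either genotype (log2 fold change -0.55, SE 0.0756, limma adjusted p = 6.34e-06), and was -0.79 against the all-gene median. Tspan31 was at 161.42 and 159.09 TPM (WT) against 120.93 and 130.23 TPM (Tet2 KO). Its fitted log2 difference was -0.35 with an SE of 0.0477 (limma adjusted p = 5.69e-06), and -0.6 against the all-gene median. Tspan31 (chromosome 10, 127067280 to 127070264, mm10) shares 29.2% of its exonic bases with Cdk4, the gene of a cell cycle kinase on the opposite strand. Cdk4 went the other way, from 237.85 and 231.71 TPM (WT) to 294.68 and 305.42 TPM (Tet2 KO). The library kit was stranded, but the counting setting is not given in the sources used here, so the value of Tspan31 is uncertain.

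Tspan2 and Tspan9 were low and higher in Tet2 KO. Tspan2, known from oligodendrocytes, was at 2.62 and 2.11 TPM (WT) against 3.83 and 4.02 TPM (Tet2 KO), with a fitted log2 difference of 0.55 (limma adjusted p = 0.000406). Against the all-gene median its rise of 0.36 (limma adjusted p = 0.0193) was not called without WT replicate 2 or without Tet2 KO replicate 2 (limma adjusted p = 0.138 and 0.054). Tspan9, a platelet tetraspanin that associates with the collagen receptor of platelets, was at 0.38 and 0.32 TPM (WT) against 1.48 and 1.60 TPM (Tet2 KO). Its mean rose 4.4-fold, with a log2 fold change of 0.91 on the deposited scale and 0.8 against the all-gene median. Over the settings run on both scales its log2 fold change ran from 0.25 to 1.87. Its neighbour Tspan11, 7.4 kb away, was listed at 0 in all libraries.

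The 10 members that were not tested lay below 1 TPM everywhere. Tspan8, an epithelial tetraspanin, was at 0.09 and 0.05 TPM (WT) against 0.75 and 0.62 TPM (Tet2 KO), and Tspan10 at 0.49 and 0.27 TPM and 0.12 and 0.03 TPM. With no filter on low values, limma called Tspan8 higher and Tspan10 lower. Tspan1, Tspan12, Tspan15, Tspan18 and Tspan33 lay between 0 and 0.11 TPM, and Tspan6, Tspan7 and Tspan11 were listed at 0 in all libraries. Tspan13, which the rule leaves out, was at 5.05 and 5.58 TPM (WT) against 21.81 and 20.93 TPM (Tet2 KO), a log2 fold change of 1.83. On log2(TPM + 1) this was larger than the value of any tested member, while as a ratio of mean TPM it was 4.02-fold beside 4.4-fold for Tspan9.

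The genes whose proteins tetraspanins bind moved in both directions. The shares to read their counts against are those of all tested genes, 54.4% higher and 19.5% lower on the deposited scale and 32.7% and 34.8% against the all-gene median. Of 12 tested immunoglobulin and signalling partners, 7 rose and 4 fell (58.3% and 33.3%), with a median log2 fold change of 0.36 beside 0.23 for all genes, or 6 and 5 against the all-gene median (50.0% and 41.7%). The rises include Dpp4, which reached 1 TPM in the Tet2 KO libraries only and so had to differ. Kit, the stem cell factor receptor and a reported partner of CD9, CD63 and CD81, rose from 11.81 ± 0.255 to 205.3 ± 5.81 TPM. The protein kinase C genes Prkca and Prkcb rose 3.91-fold and 3.66-fold. Clec7a, which encodes the fungal receptor Dectin-1 and pairs with CD37 and CD63, fell 4.56-fold, from 243.35 and 256.72 TPM in WT. Igsf8, the gene of EWI-2, the main shared partner of CD9 and CD81, was at 60.25 and 63.81 TPM (WT) against 42.09 and 45.19 TPM (Tet2 KO). It fell together with these 2 tetraspanins (log2 fold change -0.50, limma adjusted p = 9.94e-07), whereas Ptgfrn, which encodes the related protein EWI-F, did not exceed 0.06 TPM.

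Of 10 tested integrin genes, 7 rose and 3 fell (70.0% and 30.0%, median log2 fold change 0.62), or 5 and 3 against the all-gene median (50.0% and 30.0%). Itga2b and Itgb3, which together form the platelet fibrinogen receptor, a partner of CD9 and CD151, rose 2.71-fold and 2.49-fold. Itga4, a chain of the receptor for VCAM-1, rose 2.14-fold. Itgb2, the shared chain of the leukocyte integrins, fell from 637.9 ± 14.6 to 309.1 ± 10.7 TPM.

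Of 10 tested genes for ADAM10 and its substrates or related proteases, 5 rose and 5 fell (50.0% of them each way), or 4 and 5 against the all-gene median (40.0% and 50.0%). The falls include Mmp14 and Cxcl16, which reached 1 TPM in the WT libraries only and so had to differ. The E-cadherin gene Cdh1 fell 6.82-fold, the hyaluronan receptor gene Cd44 2.68-fold and the membrane protease gene Mmp14 10.6-fold, the last from 3.65 ± 0.283 TPM. App, the gene of the amyloid precursor protein, rose 3.02-fold.

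Of 15 tested genes of exosomes and multivesicular bodies, where CD63 is sorted, 7 rose and 3 fell (46.7% and 20.0%, median log2 fold change 0.11), near the shares of all tested genes, or 3 and 7 against the all-gene median (20.0% and 46.7%). Rab27b, a GTPase of vesicle secretion, rose from 10.94 ± 0.509 to 60.19 ± 3.24 TPM. The syndecan genes Sdc3 and Sdc4 fell 3.9-fold and 4.04-fold, and Timp1, whose product binds CD63, from 1.985 ± 0.163 to 0.195 ± 0.0354 TPM. Timp1 reached 1 TPM in the WT libraries only and so had to differ. Lamp1, a lysosomal membrane gene, was at 665.71 and 671.28 TPM (WT) against 660.62 and 627.94 TPM (Tet2 KO). It was not called on the deposited scale (log2 fold change -0.05, limma adjusted p = 0.193). Against the all-gene median it fell by 0.31 on the log2 scale (limma adjusted p = 0.000381).

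Tetraspanins carry palmitate, and of 9 tested genes for enzymes that add or remove it, 4 rose and 2 fell (44.4% and 22.2%), near the shares of all tested genes, or 1 and 5 against the all-gene median (11.1% and 55.6%). Zdhhc20 rose from 33.89 ± 1.65 to 53.25 ± 5.7 TPM. Zdhhc2, known to palmitoylate CD9 and CD151, fell from 2.38 ± 0.537 to 1.19 ± 0.24 TPM (limma adjusted p = 0.000781). Lypla1 and Zdhhc7 had log2 fold changes of 0.38 and 0.20 that passed the test (limma adjusted p = 0.0232 and 0.0156). Neither was called against the all-gene median, where the values were 0.14 and -0.04. The call of Lypla1 was also lost without WT replicate 1 or WT replicate 2 (limma adjusted p = 0.0598 and 0.0686), and that of Zdhhc7 without WT replicate 2 or Tet2 KO replicate 2 (limma adjusted p = 0.179 and 0.106).

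**Figure D4:**
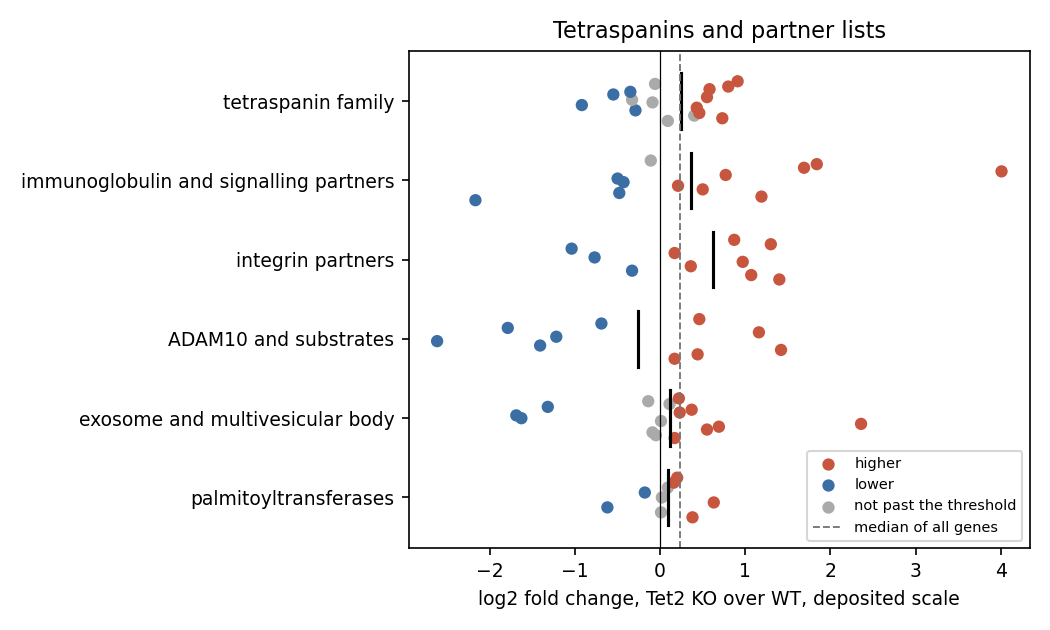
Log2 fold change of Tet2 KO over WT, on the deposited scale, for each tested tetraspanin and each tested gene of 5 partner lists (points; red, higher; blue, lower; grey, not past the threshold), with each list's median as a black bar. The tetraspanins lie between -0.92 and 0.91, while among the partners Kit lies at 4.01 and Cdh1 at -2.62.

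Markers of blood lineages that express tetraspanins moved in the same libraries, where 54.4% of all tested genes rose and 19.5% fell on the deposited scale. All 9 tested neutrophil markers fell, with summed levels of 31270 and 31120 TPM (WT) against 14330 and 13900 TPM (Tet2 KO). S100a8 and S100a9 made up most of these sums. Of 9 tested monocyte and macrophage markers 7 fell and 2, Adgre1 and Fcgr1, rose (21990 and 21950 against 9216 and 9319 TPM, mostly Lyz2). The rise of Adgre1 was small (log2 fold change 0.09, limma adjusted p = 0.041). Against the all-gene median Adgre1 was called lower (-0.16, limma adjusted p = 0.00383). On that scale 1 of these markers rose and 8 fell, beside 32.7% and 34.8% of all tested genes. Of 6 tested megakaryocyte and platelet markers 5 rose and 1 fell (173.1 and 172.2 against 417.2 and 447.0 TPM), while Gp6 was listed at 0 in all libraries. The 1 fall was Treml1, which reached 1 TPM in the WT libraries only. Among the rises, Ppbp was at 0.44 and 1.11 TPM (WT) against 5.75 and 7.17 TPM (Tet2 KO). It passed the filter only through Tet2 KO, where it was high. The platelet list shares Itga2b and Itgb3 with the integrin list. Among mast cell and basophil genes 4 of 9 tested rose and 5 fell (2324 and 2341 against 5461 and 5272 TPM, mostly Cpa3), and all 3 tested erythroid markers rose, with Hba-a2 and Hbb-bs listed at 0. The B cell markers Cd79a, Ms4a1 and Pax5 did not exceed 0.16 TPM and the T cell markers Cd3d, Cd3e, Cd3g, Cd4 and Cd8a did not exceed 0.06 TPM. On the B cell list Cd22 fell from 2.55 and 2.63 TPM to 0.43 and 0.77 TPM, and Cd79b was listed at 0 in WT and stood at 0.59 and 0.79 TPM in Tet2 KO. On the T cell list Lck rose from 0.91 and 0.55 TPM to 3.54 and 3.58 TPM. Cd22 and Lck were the tested genes of these lists, and each passed the filter only through the genotype where it was high. Of the 8 stromal and endothelial markers 1 was tested, Pdgfrb, which rose. In bulk libraries fewer cells of a type and less RNA per cell cannot be told apart, and the part of these shifts in the tetraspanin differences was not tested.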

How the data were processed

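The authors deposited 1 table of TPM with 1 column per library and 24589 rows, of which 92 are spike-ins. The unit is not named in the file and was read from the values, since every column sums to about 1000000. STAR, RSEM and mm10 are named in the submitters' processing notes, without versions. No label or header gives the annotation or the counting strand.

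Genes that reached 1 TPM in 2 or more libraries were tested with limma 3.58.1 (R 4.3.3, statmod 1.5.0) on log2(TPM + 1), with trend and robust estimation. Log2 fold changes are on that scale, which understates changes of low genes. Folds without log2 are ratios of mean TPM. P-values were adjusted by Benjamini-Hochberg over the 11452 tested genes (two-sided tests, called under 0.05). All tested members are named with their library values, and of each partner list the 4 largest called changes at most. Lamp1, Igsf8, Ptgfrn, Adam10, the overlapping genes and those noted as passing the filter in 1 genotype only were chosen after their values were seen. The members and lists were chosen with earlier results of these data known. Some genes of the lists are not reported here. Positions came from GENCODE M21 (26 of 26 members) and promoter windows from RefSeq (25 of 26). Alternatives were a replicate block, 2 other pseudocounts, 3 other filters, 4 other scalings, limma without trend or robust estimation, leaving out each library (the lone library left is assumed to vary like the other group), and shares without Cd63.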

Additional observations from a re-analysis of the deposited data

How the results depend on the processing

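The 7 rises and 4 falls on the deposited scale changed little with the pseudocount, trend, robust estimation, or when any 1 library was left out (7 to 8 rises, 4 to 6 falls). With no filter 23 members were tested, with 9 rises and 5 falls, and with a filter of 5 TPM 13, with 5 rises and 4 falls. With median-ratio, quantile and spike-in scaling 8, 8 and 8 members were lower, while for all genes the calls became 3743, 3915 and 3394 higher and 3982, 3741 and 4323 lower in place of 6225 and 2238. Under these settings, in the same order, Cd151 turned to -0.15, -0.16 and -0.19, and Tet2 from 0.01 to -0.23, -0.25 and -0.27. Zdhhc7 turned to -0.04, -0.04 and -0.08, and Adam10 to -0.08 with median-ratio and -0.12 with spike-in scaling. Median-ratio and spike-in scaling multiply all genes of a library by 1 factor. Against the all-gene median, rises ranged from 4 to 7 when a library was left out. When a library was left out Cd53 ranged on that scale from -0.02 to 0.31, and Tet2 on the deposited scale from -0.0 to 0.03. With Cd63 taken out of the sum, Cd9 made up 48.8% in WT and 30.4% in Tet2 KO, Cd53 16.3 and 25.4%, and Cd81 9.93 and 9.55%.

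Deviations of same-numbered libraries were nearly uncorrelated across genes (correlation -0.0561). With 2 libraries per genotype this cannot tell whether replicate numbers pair the libraries, and the labels do not say. With a replicate block 8 members rose and 5 fell, Cd53 and Tspan17 being added, and against the all-gene median 7 rose and 7 fell. In all genes the block gave 6179 higher and 2211 lower. TPM keep no depth, so what counting error limits in the low members is unknown.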
